A study of Mus musculus with 20 samples.

Results

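The DNA methyltransferase and demethylase genes examined here were 10 genes of the DNA methylation machinery, chosen by name: Dnmt1, Dnmt3a, Dnmt3b, Dnmt3l, Uhrf1, Tet1, Tet2, Tet3, Tdg and Mbd1. Their own methylation was read in mouse liver by reduced representation bisulfite sequencing (RRBS), in which the enzyme MspI cuts out CpG-rich fragments and bisulfite treatment distinguishes methylated from unmethylated cytosines in every read. Each gene was described by a window from 5 kb before its transcription start site (TSS) to its end. A CpG was kept where at least 10 reads covered it in at least 3 libraries of every group. This left 727 CpGs in the 10 windows, of 922846 kept in all, and 161 stretches of 200 bp (bins) of 234985. All 10 genes had a window, of 27925 genes with at least 3 kept CpGs.

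The 20 livers came from wild-type C57BL/6J mice labelled male, 5 in each of 4 groups. AME-d21 and AME-d0 offspring had dams with an adverse maternal environment (AME), a Western-style diet from before mating through pregnancy and lactation together with environmental stress late in gestation. Con-d21 and Con-d0 offspring had dams on a control diet without the stress. At d0 pups were taken by C-section at term, while d21 offspring were born naturally, stayed with the dam and were fasted before they were killed, so that age also carries the mode of delivery and the fast. Whole liver was ground, and neither the labels nor the methods say whether each library came from its own litter, so that p-values measure the spread between these samples.

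Reads summed over CpGs were 23248139 to 45769589 per library. Mean methylation over the autosomal CpGs shared by all libraries was 38.0% to 38.5% in AME-d21, 38.0% to 38.3% in Con-d21, 31.9% to 34.2% in AME-d0 and 33.8% to 35.3% in Con-d0. AME-d0 replicates 1 and 3 were the lowest, at 31.9% and 32.9%. AME-d21 replicate 4 went against its label, with 2.88 X-linked reads for every 100 autosomal ones, where the other libraries had 1.40 to 1.55, and 16.3 ppm of its reads on the Y short arm, where they had 169 to 218 ppm. None of the 10 genes is X-linked, and the called counts are given below without these libraries. The measured promoters of defining hepatocyte markers were less methylated at d21 than at d0. The 4 measured hepatocyte promoters of a list of 12 (F2, Fgb, Pck1, Hnf4a) averaged 19.5% to 26.7% in AME-d21 libraries, 19.9% to 27.2% in Con-d21, 51.9% to 60.3% in AME-d0 and 50.3% to 60.2% in Con-d0.

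DNA methylation is laid down and removed by separate enzymes. Dnmt3a and Dnmt3b methylate new CpGs, Dnmt3l is a cofactor without catalytic activity that is known mainly from germ cells and the early embryo, and Dnmt1 copies methylation after replication once Uhrf1 has bound the hemimethylated DNA. Tet1, Tet2 and Tet3 oxidise 5-methylcytosine, Tdg excises the oxidised bases, and Mbd1 binds methylated CpGs and represses transcription. Around birth the liver changes from a blood-forming organ into a metabolic one. In whole liver, a change in the share of a cell type and a change of methylation within cells cannot be told apart.

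The stretches below differed between d21 and d0 in both AME and Con and are shown so that the measured CpGs can be placed. They are the plus strand of GRCm38 (the assembly of mm10), with the CpGs measured here in capitals. The first lies just after the internal start of Dnmt3a, from which a shorter isoform is transcribed, and the second about 8 kb before that start. The Tet1 stretch lies a little under 4 kb before the start of RefSeq transcript variant 1, the Tet2 stretch lies in an intron about 10 kb after the Tet2 start, the Tet3 stretch in an untranslated exon about 1 kb after the start of variant 1, and the Uhrf1 stretch in an intron near the end of the gene.
Dnmt3a internal start (chr12:3891876-3891982): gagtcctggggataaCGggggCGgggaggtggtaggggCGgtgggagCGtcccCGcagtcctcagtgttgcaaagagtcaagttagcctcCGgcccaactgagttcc
Dnmt3a intron before the internal start (chr12:3883709-3883848): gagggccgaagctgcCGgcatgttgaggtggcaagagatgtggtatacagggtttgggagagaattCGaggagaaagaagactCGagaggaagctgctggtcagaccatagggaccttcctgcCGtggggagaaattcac
Tet1 intron (chr10:62890940-62891131): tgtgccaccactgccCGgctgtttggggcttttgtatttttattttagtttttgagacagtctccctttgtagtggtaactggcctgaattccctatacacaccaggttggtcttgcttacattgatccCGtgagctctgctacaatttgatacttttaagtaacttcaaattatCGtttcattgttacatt
Tet2 intron (chr3:133534136-133534297): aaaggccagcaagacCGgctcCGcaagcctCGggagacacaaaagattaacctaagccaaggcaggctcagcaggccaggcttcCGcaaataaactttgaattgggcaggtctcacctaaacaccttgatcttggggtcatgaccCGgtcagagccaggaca
Tet3 untranslated exon (chr6:83455302-83455331): tggCGgCGgcagcccccaaggaagatttca
Uhrf1 intron (chr17:56319816-56319854): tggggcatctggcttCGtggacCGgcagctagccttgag

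The internal start of Dnmt3a was nearly unmethylated at d0 and partly methylated at d21. This start (RefSeq transcript variant 2, position 3891744 of chromosome 12) gives the short isoform, which is known from embryonic stem cells and germ cells. The test of RefSeq starts was chosen after the data were seen. Over its 7 measured CpGs, at 150 to 365 reads per library, methylation was 31.3%, 25.9%, 14.1%, 23.5% and 17.8% in AME-d21, 16.3%, 14.5%, 21.5%, 21.2% and 22.5% in Con-d21, 1.33%, 0.88%, 0.45%, 1.39% and 2.27% in AME-d0 and 0.41%, 0%, 1.28%, 1.72% and 0.44% in Con-d0. Every d21 library was above every d0 library. The difference was 4.59 ± 0.40 on the log2 scale of methylated over unmethylated reads in Con (SE, limma adjusted p = 5.1e-06) and 4.17 ± 0.36 in AME (adjusted p = 6.1e-06). The CpGs of this stretch did not move alike. The CpG at 3891929 averaged 35.1% ± 6.58 in AME-d21 and 0% in AME-d0 (SD, n = 5 each), and 31.2% ± 8.22 in Con-d21 against 1.52% ± 2.30 in Con-d0. The CpG at 3891891 averaged 11.7% ± 5.18 in AME-d21 and 0% in AME-d0, and 11.6% ± 4.59 in Con-d21 against 0.345% ± 0.77 in Con-d0. The starts of variants 1 and 3, which give the long isoform, stayed at 0.146% or less in the mean of every group.

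A further rise in Dnmt3a lay in the intron before that start. The CpG at 3883832 had 80.6%, 51.7%, 72.7%, 80.8% and 71.4% methylation in AME-d21, 80.6%, 90.0%, 72.7%, 77.1% and 81.5% in Con-d21, 38.5%, 22.9%, 42.9%, 32.4% and 40% in AME-d0 and 40%, 25.6%, 35.5%, 38.2% and 28.0% in Con-d0. The ages did not overlap in either maternal group (adjusted p = 3.9e-05 in Con and 0.00079 in AME). The CpG at 3883775 averaged 81.2% ± 7.78 in Con-d21 against 30% ± 3.41 in Con-d0, and 69.4% ± 12.8 in AME-d21 against 42.6% ± 5.74 in AME-d0. The CpG at 3883724, in the same bin, was high throughout, at 96.2% in AME-d21, 95.5% in Con-d21, 80.5% in AME-d0 and 84.9% in Con-d0.

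Over the whole window of Dnmt3a (ENSMUSG00000020661, chr12:3806007-3914443, plus strand), which holds 100 kept CpGs, methylation was 39.3%, 44.2%, 44.3%, 46.1% and 39.0% in AME-d21, 43.8%, 40.3%, 40%, 41.6% and 42.1% in Con-d21, 28.2%, 34.0%, 27.9%, 31.4% and 34.1% in AME-d0 and 32.4%, 31.4%, 32.8%, 35.5% and 37.2% in Con-d0. Every d21 library lay above every d0 library of its maternal group, by 7.73 points in Con (log2 0.48 ± 0.12, adjusted p = 0.0073) and 11.5 points in AME (log2 0.72 ± 0.16, adjusted p = 0.0040). The size of this difference depends on which CpGs enter, and it reached 19 points in Con and 23.1 points in AME where a CpG needed 20 reads. Of the 30 Dnmt3a bins, 10 rose and 1 fell in Con, and 13 rose in AME. Among them the bin from 3871801 averaged 52.8% ± 10.9 in AME-d21 and 25.6% ± 7.82 in AME-d0 (adjusted p = 0.0027). The bin from 3842801 averaged 73.2% ± 11.5 in Con-d21 and 47.9% ± 13.7 in Con-d0 (adjusted p = 0.014). The bin that fell, from 3808601 near the start of variant 3, averaged 11.5% ± 8.22 in Con-d21 and 23.9% ± 4.41 in Con-d0 (adjusted p = 0.018). It averaged 18.9% in AME-d21 and 28.4% in AME-d0, below the minimum difference of 10 points. The bin from 3815001 was measured in 3 of 5 AME-d0 libraries (75.7% in AME-d21, 43.4% in AME-d0), and its adjusted p of 0.024 ranged from 0.0025 to 0.069 over the alternatives, being lost without AME-d0 replicate 1 or 4.

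**Figure D1:**
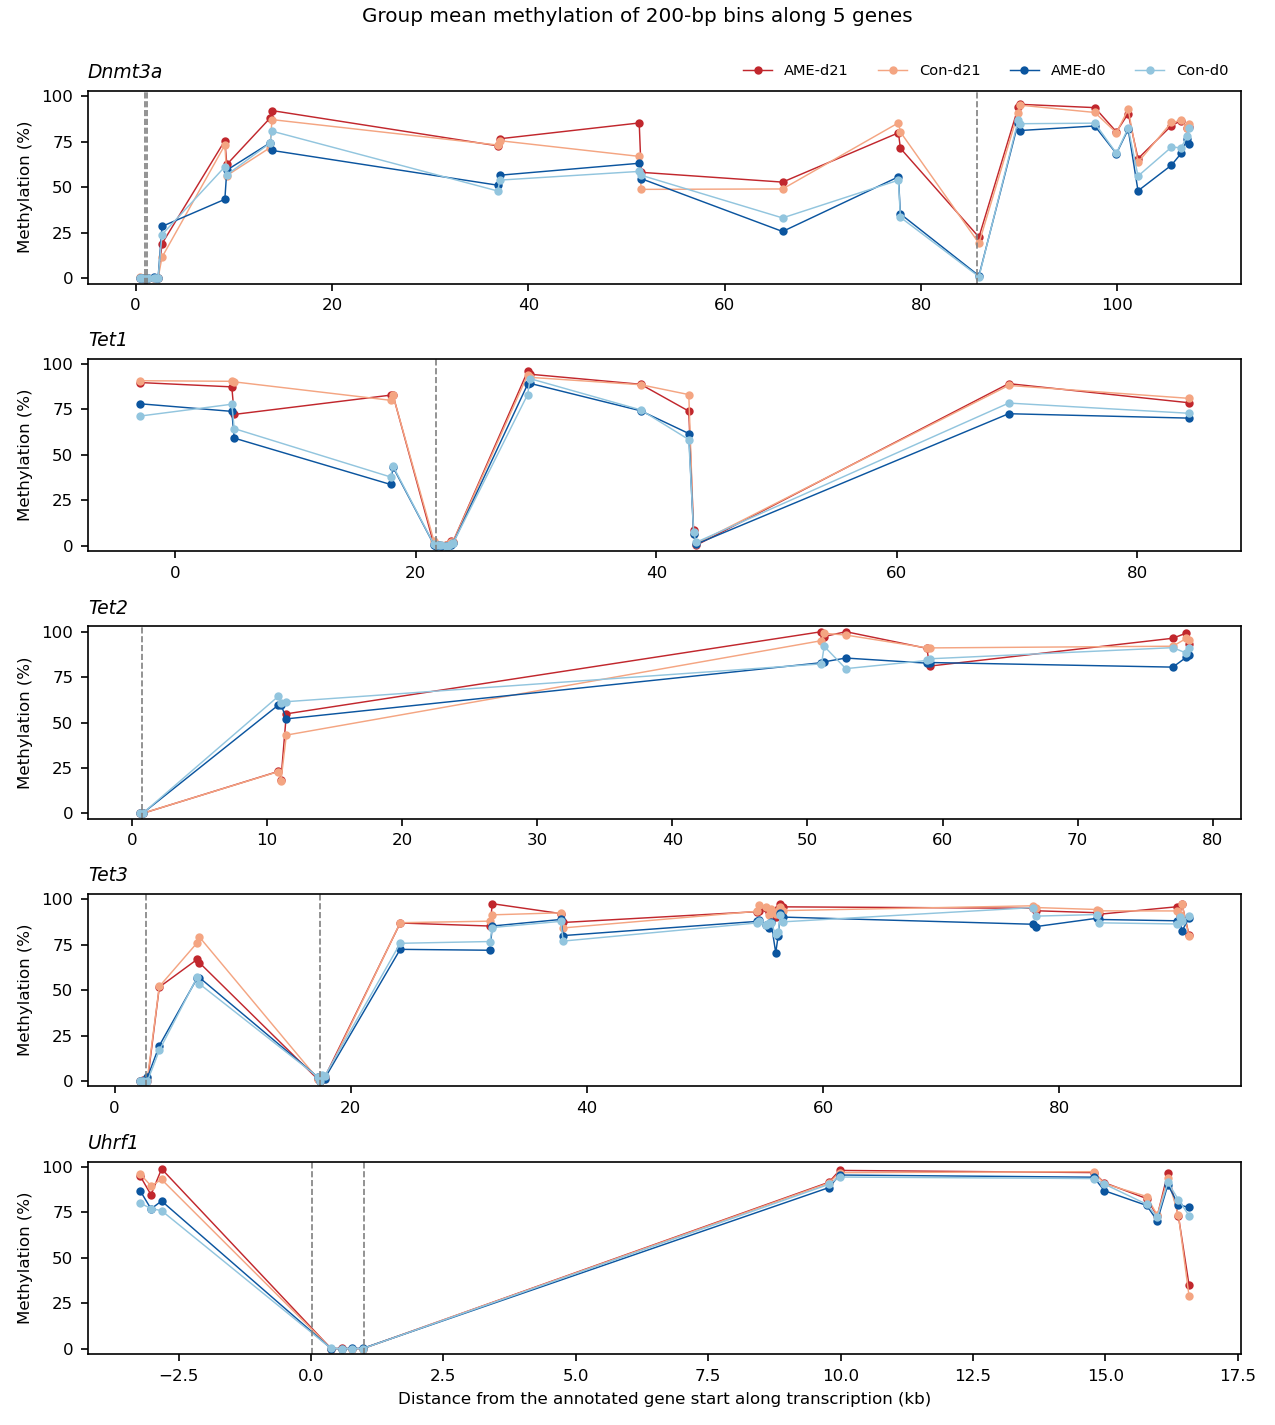
Group mean methylation (%) of each 200-bp bin along Dnmt3a, Tet1, Tet2, Tet3 and Uhrf1, against distance from the annotated gene start in kb, with dashed lines at RefSeq starts and lines joining neighbouring bins only to guide the eye. Bins at most starts sit near 0% in all 4 groups, the bin at the internal Dnmt3a start lies at 22.5% in AME-d21 and 19.2% in Con-d21 against 1.26% in AME-d0 and 0.77% in Con-d0, and the Tet2 bins about 10 kb after the start are lower at d21.

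Dnmt3l (ENSMUSG00000000730, chr10:78041947-78063622, plus strand) had the highest methylation of the 10 windows and rose with age. Its window holds 14 kept CpGs at 305 to 628 reads, and 2 of its 6 bins rose in Con and 3 in AME. It had 88.0%, 84.7%, 86.6%, 85.7% and 87.9% in AME-d21, 84.6%, 88.5%, 85.3%, 87.4% and 85.2% in Con-d21, 67.6%, 72.3%, 72.9%, 73.9% and 78.1% in AME-d0 and 75.6%, 71.4%, 69.8%, 72.1% and 77.3% in Con-d0. The difference was 1.18 ± 0.15 on the log2 scale in Con (adjusted p = 0.00014) and 1.24 ± 0.17 in AME (adjusted p = 0.00021), with no overlap. Con was 6.85 points apart and not called (adjusted p = 0.071) when CpGs with 5 reads were admitted, over alternatives from 6.7e-06 to 0.071. Its promoter holds 5 kept CpGs at 40 to 119 reads near the start of variant 2, and the starts of its other variants were not measured. Unlike the other promoters measured, it was methylated at both ages, at 70.4% ± 4.07 in AME-d21, 71.3% ± 3.30 in Con-d21, 60.2% ± 10.6 in AME-d0 and 58.8% ± 12.2 in Con-d0. That difference did not pass the test (adjusted p = 0.14 in Con and 0.20 in AME), and the d0 libraries ranged from 47.6% to 76.1%. Without Con-d0 replicate 1, the highest of them, it was 16.8 points in Con and called (adjusted p = 0.027).

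No window of Dnmt3b, Dnmt1 or Uhrf1 was called by age. In Dnmt3b (ENSMUSG00000027478, chr2:153649450-153687730, plus strand), 2 of 8 bins rose in each maternal group, and the window averaged 10.5% ± 1.70 in AME-d21, 10.8% ± 1.75 in Con-d21, 7.36% ± 2.51 in AME-d0 and 10.7% ± 1.59 in Con-d0. The window differed by 0.62 ± 0.28 on the log2 scale in AME (limma adjusted p = 0.089) and by 0.02 ± 0.16 in Con (adjusted p = 0.93). Of its 57 kept CpGs, 50 lie in the promoter. Bins below 10% gave 87.8% to 95.4% of its reads in AME-d0 and 81.0% to 88.2% in Con-d0, which limits how far its pooled percent can move. Dnmt1 (ENSMUSG00000004099, chr9:20907209-20959888, minus strand) had none of 20 bins called in Con (7 at an unadjusted p below 0.05 by limma) and 2 in AME, both higher at d21. Its window averaged 56.9% ± 2.90 in AME-d21, 55.7% ± 2.38 in Con-d21, 51.7% ± 4.27 in AME-d0 and 52.5% ± 3.32 in Con-d0. Uhrf1 (ENSMUSG00000001228, chr17:56303321-56323486, plus strand) had an intronic bin that fell, and of its 16 bins 3 rose in Con and 1 in AME. From 56319801, with 2 CpGs at 12 to 44 reads, this bin had 50.0%, 12.0%, 41.2%, 27.0% and 44.4% in AME-d21, 29.3%, 28.2%, 51.2%, 20% and 15.4% in Con-d21, 75.9%, 85.7%, 80%, 68.2% and 79.5% in AME-d0 and 63.6%, 81.2%, 87.2%, 59.5% and 74.4% in Con-d0. The d21 libraries were spread widely but all lay below all d0 libraries (log2 -2.73 ± 0.46 in Con, adjusted p = 0.00058, and -2.62 ± 0.44 in AME, adjusted p = 0.00051). The Uhrf1 window was 33.3% ± 3.53 in AME-d21, 37.3% ± 1.59 in Con-d21, 31.6% ± 4.53 in AME-d0 and 34.2% ± 2.29 in Con-d0, and was not called.

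Among the demethylases, the called bins of Tet1 all rose, while Tet2, and in Con also Tet3, held bins called in both directions. In Tet1 (ENSMUSG00000047146, chr10:62804570-62908996, minus strand), the bin from 62891001, with 2 CpGs at 32 to 80 reads, had 76.5%, 79.7%, 87.9%, 87.0% and 83.3% in AME-d21, 83.3%, 76.2%, 74.3%, 88.3% and 78.0% in Con-d21, 38.1%, 23.7%, 37.5%, 39.1% and 30.3% in AME-d0 and 47.4%, 39.7%, 23.8%, 34.8% and 43.6% in Con-d0. It rose by 42.2 points in Con (adjusted p = 9.5e-05) and 49.2 points in AME (adjusted p = 1.6e-05). The neighbouring CpG at 62890955, measured with 10 reads in 5 AME-d21, 3 Con-d21, 3 AME-d0 and 4 Con-d0 libraries, averaged 83.0% in AME-d21 and 43.3% in AME-d0, and 82.9% in Con-d21 and 43.9% in Con-d0. In all, 8 of 21 Tet1 bins rose in Con and 5 in AME. The Tet1 window averaged 22.6% ± 3.27 in AME-d21, 22.7% ± 1.99 in Con-d21, 17.6% ± 2.03 in AME-d0 and 20.4% ± 1.23 in Con-d0, and was not called.

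In Tet2 (ENSMUSG00000040943, chr3:133463679-133545139, minus strand), the bin from 133534001, with 3 CpGs at 106 to 205 reads, had 20.2%, 18.7%, 12.9%, 20.8% and 20.5% in AME-d21, 17.8%, 23.2%, 11.9%, 14.4% and 22.6% in Con-d21, 65.5%, 48.7%, 60.3%, 65.9% and 59.0% in AME-d0 and 66.4%, 59.5%, 69.1%, 49.3% and 60.3% in Con-d0. All d21 values lay far below all d0 values (log2 -2.83 ± 0.33 in Con, adjusted p = 3.9e-05, and -2.68 ± 0.31 in AME, adjusted p = 3.3e-05). The next bin, from 133534201, averaged 23.1% ± 6.12 in AME-d21 and 59.6% ± 6.20 in AME-d0, and 23.0% ± 6.89 in Con-d21 and 64.4% ± 10.3 in Con-d0. Within the 5 CpGs of this stretch, the one at 133534166 was lowest at d21, at 11% ± 3.50 in AME-d21 against 51.9% ± 7.74 in AME-d0, and 11.5% ± 3.8 in Con-d21 against 51.4% ± 8.17 in Con-d0. The CpG at 133534157, just before it, was 26.8% ± 5.88 in AME-d21 against 72.6% ± 4.68 in AME-d0. One more bin, from 133533601, was 43.1% ± 5.45 in Con-d21 and 61.5% ± 11 in Con-d0 (adjusted p = 0.025, and 0.017 to 0.062 over the alternatives, lost without Con-d21 replicate 1 or 5 or Con-d0 replicate 1 or 4), but 54.8% ± 6.87 in AME-d21 and 52.0% ± 10.7 in AME-d0. Other Tet2 bins rose (1 in Con, 5 in AME), and the window, at 27.6% ± 5.06 in AME-d21, 23.6% ± 4.75 in Con-d21, 25.4% ± 3.68 in AME-d0 and 29.1% ± 4.80 in Con-d0, was not called.

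In Tet3 (ENSMUSG00000034832, chr6:83362373-83459084, minus strand), the bin from 83455201, with 4 CpGs at 89 to 249 reads, had 52.2%, 50.6%, 62.3%, 48.1% and 45.2% in AME-d21, 41.7%, 49.1%, 51.2%, 60.2% and 57.9% in Con-d21, 17.8%, 22.6%, 15.4%, 18.8% and 22.6% in AME-d0 and 15.2%, 20.3%, 15.8%, 18.6% and 14.5% in Con-d0. The ages were fully separate (log2 2.39 ± 0.29 in Con, adjusted p = 5.5e-05, and 2.13 ± 0.30 in AME, adjusted p = 0.00014). The CpG at 83455308 averaged 63.3% ± 5.72 in AME-d21 and 27.7% ± 6.58 in AME-d0, and that at 83455366 16.3% ± 11.1 in AME-d21 and 1.98% ± 1.87 in AME-d0. Near the other end of the gene, a bin of 11 CpGs in an untranslated exon, from 83368001, fell to 79.5% ± 4.47 in Con-d21, against 90.7% ± 2.54 in Con-d0 (adjusted p = 0.0037), while AME fell by 9.63 points (80.2% in AME-d21, 89.9% in AME-d0), under the minimum of 10. Con fell by 9.28 points without Con-d21 replicate 4. Of the 32 Tet3 bins, 6 rose in each maternal group. The intronic bin from 83451801 was 79.2% in Con-d21 and 53.4% in Con-d0 (adjusted p = 0.010, and 0.0057 to 0.11 over the alternatives). The Tet3 window averaged 60.8% ± 2.49 in AME-d21 and 53.3% ± 3.77 in AME-d0 (log2 0.44 ± 0.16, adjusted p = 0.042), a call that was lost under 12 of 17 alternatives (adjusted p 0.016 to 0.20), among them the absence of any 1 AME-d21 library or of AME-d0 replicate 1, 2 or 3. In Con it was 59.2% ± 2.45 at d21 and 53.3% ± 4.53 at d0 (adjusted p = 0.089).

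Tdg (ENSMUSG00000034674, chr10:82629828-82650799, plus strand) had none of 7 bins called in Con (2 at an unadjusted p below 0.05 by limma) and 2 higher in AME. This gene encodes the excision enzyme. Its window, at 23.4% ± 4.95 in AME-d21, 23.2% ± 3.79 in Con-d21, 17.9% ± 5.28 in AME-d0 and 21.5% ± 3.39 in Con-d0, was not called (adjusted p = 0.16 in AME and 0.59 in Con). In Mbd1 (ENSMUSG00000024561, chr18:74267605-74282732, plus strand), 2 of 8 bins rose in Con and 1 in AME. A bin of 3 CpGs in an intron within 1 kb of the start averaged 47.9% ± 5.77 in AME-d21 and 19.4% ± 2.59 in AME-d0 (adjusted p = 0.00027), and 43.6% ± 10.6 in Con-d21 and 22.2% ± 9.5 in Con-d0 (adjusted p = 0.013). The AME libraries did not overlap, while Con-d21 ran from 27.2% to 52.0% and Con-d0 from 11.1% to 34.9%. The Mbd1 window was 30.2% ± 6.63 in AME-d21, 29.6% ± 2.18 in Con-d21, 25.2% ± 5.23 in AME-d0 and 27.0% ± 1.91 in Con-d0.

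**Figure D2:**
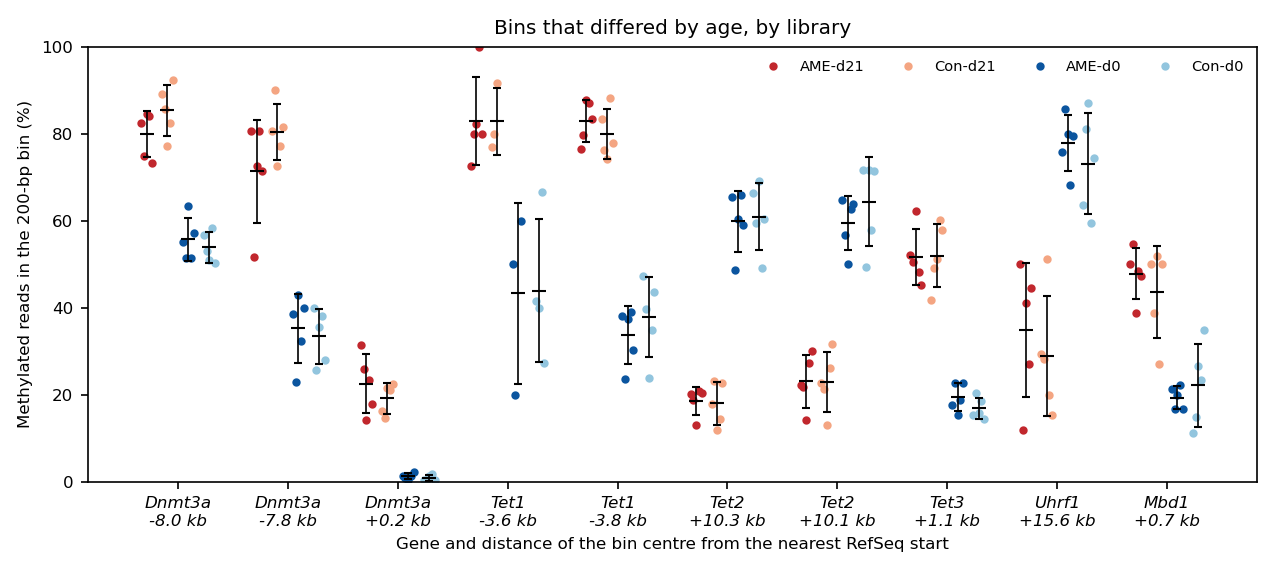
Methylated reads (%) in 10 bins of 200 bp, by gene and distance of the bin centre from the nearest RefSeq start, with 1 point per library, the group mean as a dash and the SD as bars. The d21 points lie above the d0 points in Dnmt3a, Tet1, Tet3 and Mbd1 (with overlap in Con for Mbd1) and below them in Tet2 and Uhrf1, while AME and Con of one age overlap in each bin.

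Counted over all members, 2 of 10 windows were called at an adjusted p below 0.05 in Con-d21 against Con-d0 (Dnmt3a and Dnmt3l, both higher), where 42.7% of all windows were called (38.5% higher and 4.12% lower), and 3 of 10 in AME-d21 against AME-d0 (with Tet3, all higher), where 45.7% were (42.9% higher and 2.83% lower). Windows of the 2 called genes in Con and of the 3 in AME did not overlap between ages, against 31.1% and 32.7% of all windows. The median difference of the members was 2.86 points in Con and 5.11 points in AME, beside 2.85 and 4.62 points over all windows. Of the 161 bins, 40 were called in Con (34 higher and 6 lower at d21), or 24.8%, where 29.7% of all bins were (26.7% higher and 2.98% lower), and 43 in AME (40 higher and 3 lower), or 26.7%, where 34.7% were (32.1% higher and 2.56% lower). A bin was called at an adjusted p below 0.05 and a difference of at least 10 points. The groups did not overlap in 38 member bins in Con and 42 in AME, against 25.3% and 27.5% of all bins. The median bin difference was 4.23 points in Con and 5.79 in AME, against 6.40 and 7.79 over all bins. Without AME-d0 replicates 1 and 3, 31 bins and 2 windows were called in AME, and without AME-d21 replicate 4, 42 bins and 2 windows.

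Calls were unevenly spread over the level of a bin. In 44 member bins methylation was below 10% in every group, where a difference of 10 points cannot be reached, and none was called (4 in Con and 6 in AME at an unadjusted p below 0.05 by limma). In 58 member bins it was above 80% in every group, and 12.1% of these were called in Con and 19% in AME, beside 19.1% and 25.0% of all such bins. In the 59 bins between, 55.9% were called in Con and 54.2% in AME, beside 42.7% and 49.0% of all such bins. The classes use the same group means as the tests, so that a large change by itself can place a bin between. The uneven spread of calls is thus partly fixed by the classing. Of the 40 bins called in Con and the 43 called in AME, 26 were called in both, which is 65% of the Con bins and 60.5% of the AME bins, and all 26 had the same direction. Over all bins, 71.8% and 61.6% were shared. The 2 comparisons share no samples. Of the 34 that rose in Con, 20 lay in introns, 6 upstream, 5 in untranslated exons and 3 in coding exons. Of the 121 not called in Con, 60 lay in introns, 33 in coding exons, 24 in untranslated exons and 1 upstream. Of the 40 that rose in AME, 23 lay in introns, 9 in coding exons, 5 in untranslated exons and 3 upstream. Of the 118 not called in AME, 59 lay in introns, 27 in coding exons, 25 in untranslated exons and 4 upstream.

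**Figure D3:**
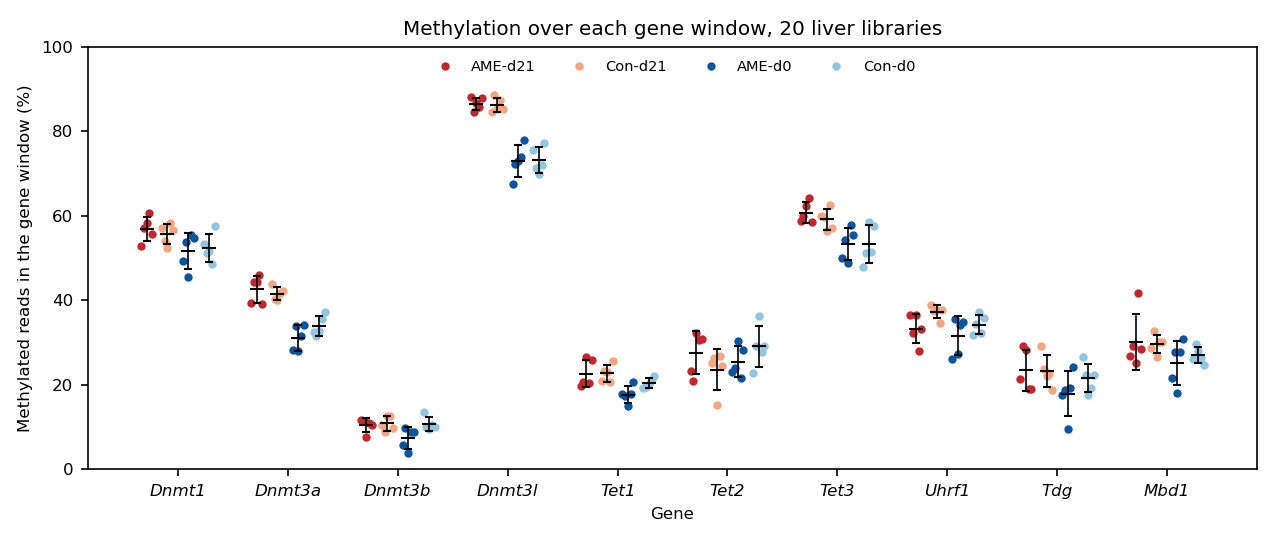
Methylated reads (%) over the window of each of the 10 genes, with 1 point per library, the group mean as a dash and the SD as bars. Dnmt3l is highest at both ages, with 86.6% in AME-d21 and 86.2% in Con-d21 against 72.9% in AME-d0 and 73.2% in Con-d0, and Dnmt3b is lowest.

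Most measured start sites of the 10 genes were nearly free of methylation in every group. Promoters (1 kb on either side of the gene's TSS) were measured for 7 of the 10 genes, with Dnmt1, Tet1 and Tet3 below 3 kept CpGs. Those of Dnmt3a, Dnmt3b, Tet2, Uhrf1, Tdg and Mbd1 had group means of 0.451% or less. None of the 7 was called in Con or AME by limma (1 at an unadjusted p below 0.05 in each), where 23.7% of all promoters were in Con (19.8% higher and 3.88% lower) and 24% in AME (20.8% higher and 3.13% lower). The groups did not overlap in 1, Tet2 in AME (0.0175% in AME-d21, 0.133% in AME-d0), against 19.3% of all promoters. Every RefSeq start was then used instead, a choice made after seeing the data, of which 1 of Dnmt1 (variant 3) and those of Dnmt3l other than variant 2 were not measured. Measured were the starts of Dnmt3a variants 1, 2 and 3, Tet3 variants 1 and 2, Dnmt1 variants 1 and 4, Uhrf1 variants 1 and 2, and 1 of each other gene. The Dnmt1 pair, and the Uhrf1 pair, hold the same CpGs and so give the same values. Of the measured starts, 4 starts were called in Con and 1 in AME, where 16.8% of 15749 starts were in Con (13.4% higher and 3.43% lower) and 16.5% in AME (13.6% higher and 2.83% lower). The internal Dnmt3a start was called in both. The other 3 calls were small in size. Mbd1 averaged 2.94% ± 0.90 in Con-d21 and 1.24% ± 0.68 in Con-d0 (adjusted p = 0.038), Tet1 variant 1 averaged 0.464% in Con-d21 and 0.163% in Con-d0 (adjusted p = 0.012), and Tet3 variant 2 was lower in Con-d21, at 1.09% ± 0.47, than in Con-d0, at 2.48% ± 0.44 (adjusted p = 0.027). In AME these starts averaged 3.33% in AME-d21 and 1.71% in AME-d0 for Mbd1, 0.292% in AME-d21 and 0.149% in AME-d0 for Tet1, and 1.21% in AME-d21 and 2.02% in AME-d0 for Tet3, and were not called. The Mbd1 value at AME-d21 includes 6.91% in replicate 4, beside 1.66% to 2.91% in the others.

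Single CpGs were tested with a quasi-binomial model and called at p below 0.001 and a difference of at least 10 points, the thresholds given in the methods of the study. Of the 727 CpGs, 20 were called in Con (15 higher at d21), where 3.21% of all CpGs were (2.48% higher and 0.73% lower), and 20 in AME (14 higher), where 3.11% were (2.56% higher and 0.553% lower). Without AME-d0 replicates 1 and 3, the count in AME was 7, and it was 15 without AME-d21 replicate 4, 12 without AME-d21 replicate 2, 13 without AME-d21 replicate 3 and 13 without AME-d0 replicate 2. The lowest p in Con belonged to the Dnmt3a CpG at 3883775, followed by Tet2 at 133534166, Dnmt3a at 3883832, Tet2 at 133534157 and Tet3 at 83455235, which averaged 57.2% ± 12.4 in Con-d21 and 7.75% ± 6.21 in Con-d0. In AME it belonged to Tet2 at 133534157, followed by Dnmt3a at 3891929, Tet2 at 133534166, Tet1 at 62891115, which averaged 85.4% ± 5.07 in AME-d21 and 31.7% ± 8.54 in AME-d0, and Tet2 at 133534220, which averaged 26.5% ± 5.67 in AME-d21 and 65.6% ± 7.55 in AME-d0. These p-values are unadjusted. Depth at the called CpGs was 7 to 81 reads per library, and a library with fewer than 10 reads at a CpG was left out of its test.

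The bins named above were also searched for the letters of 6 binding motifs on both strands, as a description. TTGCNNAA, the core of a C/EBP motif (C/EBP proteins are leading factors of hepatocytes and myeloid cells), occurred in 3 of 22 named bins and in 8.53% of all bins. It lies in the Tet2 bin from 133534201 and includes the measured CpG at 133534220, which is in the stretch printed above. GAGGAAGT (ETS) occurred in 1 named bin and in 1.16% of all bins, and AGATAA, a motif of GATA factors, in 1 and in 6.71%. TGTTTAC (FOXA), CAAAGTCCA (HNF4) and CACGTG (E-box) occurred in none, against 1.99%, 0.212% and 3.36% of all bins.

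No window, promoter or bin of the 10 genes was called between AME and Con at either age. At d0, none of 10 windows, 7 promoters or 161 bins was called in AME-d0 against Con-d0 by limma, with 1, 0 and 5 at an unadjusted p below 0.05 and a lowest adjusted p of 0.65, 0.97 and 0.87. Among all windows, promoters and bins 0% were called. The groups overlapped in every member, while they did not in 1.29% of all windows, 0.801% of promoters and 1.05% of bins. None of 727 CpGs was called by the quasi-binomial test (9 at an unadjusted p below 0.05), against 0.000542% of all CpGs by the same test. Limma per CpG called 1, with no share over all CpGs given here, so nothing is read from it. The lowest window p belonged to Dnmt3b, with 5.78%, 9.64%, 3.72%, 8.88% and 8.75% in AME-d0 and 13.4%, 9.96%, 9.54%, 10.4% and 9.92% in Con-d0 (limma adjusted p = 0.65). All 10 windows had a lower mean in AME-d0, as did 73.3% of all windows, with a median of -2.68 points over the members and -0.937 over all. Without AME-d0 replicates 1 and 3, 5 were lower and 5 higher, with a median of -0.0221, and 54.4% of all windows were lower. These replicates were the AME-d0 libraries lowest in mean methylation, so that leaving them out by itself tends to raise AME-d0. The change of sign is thus partly fixed by the choice. Again 0 windows, promoters, bins and CpGs were called. A window's percent pools reads, so that it falls where more reads come from unmethylated stretches. AME-d0 replicate 3 took 95.4% of its Dnmt3b reads and 86.9% of its Tdg reads from bins below 10%, against 81.0% to 88.2% and 67.4% to 80.7% in Con-d0. Its share was also above all Con-d0 libraries in Dnmt1, Dnmt3a, Tet1, Uhrf1 and Mbd1. It was within the Con-d0 range in Tet2 (58.5%, against 56.1% to 70.1%) and Tet3, and Dnmt3l had no such reads. The share of replicate 1 was above Con-d0 in Dnmt3b, Tet1, Uhrf1 and Mbd1, and within its range in Dnmt1, Dnmt3a, Tet2, Tet3 and Tdg. The part of this share in the window means was not tested. The 3 bins with the largest differences were in Dnmt3a from 3815001 (43.4% in AME-d0, 61.3% in Con-d0, adjusted p = 0.89), Dnmt3b from 153686401 (75.9% in AME-d0, 88.5% in Con-d0, adjusted p = 0.87) and Tet2 from 133468001 (80.5% in AME-d0, 91.2% in Con-d0, adjusted p = 0.87), and in none were the groups separate.

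At d21, none of the windows, promoters or bins was called in AME-d21 against Con-d21 by limma (0, 0 and 11 at an unadjusted p below 0.05, lowest adjusted p 1, 0.99 and 0.97), where 0% of all were. None of the CpGs was called by the quasi-binomial test (14 at an unadjusted p below 0.05), against 0.000217% of all by the same test. Limma per CpG called 2, with no share over all CpGs given here, so nothing is read from them. Without AME-d21 replicate 4, 0 windows, promoters, bins and CpGs were called. The median window difference was 0.457 points, beside 0.00124 over all windows. The groups did not overlap in 2 member bins, and in 0.892% of all bins. In the single measured CpG of the Tet1 bin from 62904001, methylation was 72.2%, 64.7%, 66.7%, 80% and 77.8% in AME-d21 and 87.5%, 89.5%, 95%, 84.0% and 95% in Con-d21, at 10 to 40 reads (limma adjusted p = 0.97). The same CpG had 44.4% to 69.6% in AME-d0 and 56.2% to 70.6% in Con-d0, where the groups overlapped. The other was the Tet3 bin from 83451801, with 65.1% in AME-d21 (3 libraries) and 79.2% in Con-d21 (adjusted p = 0.97). Dnmt3a from 3857201 averaged 85.4% in AME-d21 and 67.0% in Con-d21, and Dnmt3a from 3819601 88.0% in AME-d21 and 71.8% in Con-d21 (adjusted p = 0.97 for both). At the internal Dnmt3a start AME minus Con was 0.26 ± 0.32 on the log2 scale (adjusted p = 0.98). A test of whether the age difference depended on the maternal environment called none of the 10 windows, 7 promoters or 161 bins by limma (0, 0 and 6 at an unadjusted p below 0.05), where 0% of all bins were called.

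**Figure D4:**
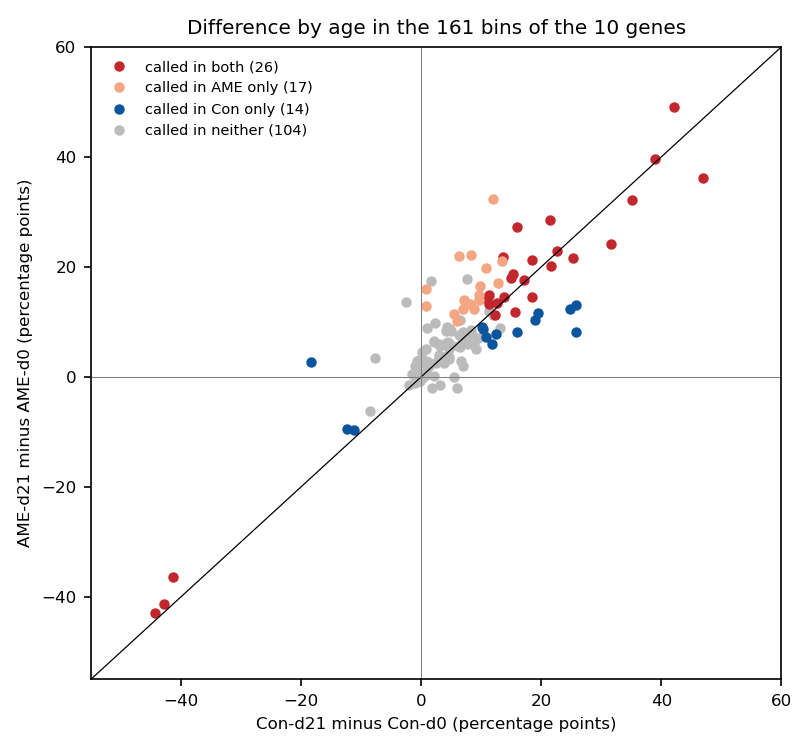
Difference between d21 and d0 in the 161 bins of the 10 genes, in percentage points, for AME (vertical axis) and Con (horizontal axis), with 1 point per bin, colours for where it was called and the line of equal difference. The 26 bins called in both lie toward the upper right and the lower left, and the 3 farthest to the lower left are those of Tet2 and Uhrf1.

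Partners of these genes were read in the same way, as lists chosen by function. Their counts stand beside the same shares of all genes, with 42.9% of all windows called higher and 2.83% lower in AME, and 38.5% higher and 4.12% lower in Con. Of all promoters 20.8% were called higher and 3.13% lower in AME, and 19.8% higher and 3.88% lower in Con. With so few genes in a list, nothing is read from the counts about the lists themselves. Of other readers of methylated DNA, 3 of 10 windows rose and 1 fell in each maternal group, and 1 of 8 promoters was called, that of the mismatch glycosylase Mbd4, at 5.4% ± 1.49 in AME-d21 and 0.520% ± 0.38 in AME-d0, and 5.98% ± 1.04 in Con-d21 and 0.609% ± 0.59 in Con-d0. Of maintenance partners, 1 of 5 windows rose in AME and 2 in Con, and 1 of 3 promoters, that of Dppa3, which is known to keep Uhrf1 out of the nucleus in mouse oocytes, at 77.7% ± 5.55 in AME-d21 and 49.1% ± 11.4 in AME-d0, and 79.4% ± 2.97 in Con-d21 and 51.6% ± 9.46 in Con-d0. Of targeting and histone partners, 2 of 9 windows rose and 1 fell in each, among them Zfp57, a zinc finger protein that keeps imprints, at 46.7% ± 9.89 in AME-d21 and 14.5% ± 5.27 in AME-d0, and 48.4% ± 5.58 in Con-d21 and 16.9% ± 5.84 in Con-d0. The window that fell was Ezh2 in AME, near the floor at 0.0711% in AME-d21 and 0.178% in AME-d0. In Con it was another gene, Setd2, at 16.6% in Con-d21 and 21.5% in Con-d0. The promoter of the H3K36 methyltransferase Nsd1 was the one called of 7, at 63.5% in AME-d21 and 38.0% in AME-d0. Of excision and demethylation partners, 5 of 12 windows rose in AME and 4 in Con. Their promoters gave Neil2, a DNA glycosylase, higher in both (5.38% in AME-d21 and 1.63% in AME-d0) and the endonuclease Apex1 lower in Con (0% in Con-d21 and 0.0852% in Con-d0), of 9. Of TET cofactors, 4 of 8 windows rose in AME and 2 in Con, and of 8 promoters Cxxc4 was called in AME and Cxxc5 in Con, both below 1%. No window or promoter of these lists was called in AME against Con at either age by limma, and in single lists at most 3 reached an unadjusted p below 0.05.

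Marker promoters of other cell types moved with age in the same libraries. Mean levels over 4 measured erythroid promoters of a list of 12 were 27.8% to 36.6% in AME-d21, 28.1% to 35.3% in Con-d21, 10.2% to 18.2% in AME-d0 and 13.4% to 15.9% in Con-d0, with 2 of 4 called higher in each maternal group. Over 6 of 14 haematopoietic progenitor and myeloid promoters they were 51.1% to 53.9% in AME-d21, 49.4% to 53.9% in Con-d21, 25.3% to 29.3% in AME-d0 and 24.1% to 32.3% in Con-d0, with 6 of 6 higher in AME and 5 of 6 in Con. Over 4 of 6 megakaryocyte promoters they were 53.2% to 67.7% in AME-d21, 58.8% to 69.3% in Con-d21, 21.7% to 31.4% in AME-d0 and 32% to 36.2% in Con-d0, with 4 of 4 higher in each. B cell promoters rose in 2 of 3, endothelial in 2 of 4, the Kupffer cell gene Adgre1 in 1 of 1 and cholangiocyte in 1 of 3, in each maternal group. All promoters gave 20.8% higher and 3.13% lower in AME, and 19.8% and 3.88% in Con. Cholangiocyte windows went both ways, with 3 of 6 called higher and 2 lower in AME, and 2 higher and 2 lower in Con. All windows gave 42.9% higher and 2.83% lower in AME, and 38.5% and 4.12% in Con. The Spp1 and Krt7 windows differed by -16.8 and -15.7 points in AME and by -14.2 and -12.8 in Con. That of Cldn4 differed by 9.74 points in AME and 10.7 in Con. Stellate promoters gave 3 of 7 higher in AME, and 2 higher and 1 lower in Con. Windows called higher in AME were 3 of 7 erythroid, 9 of 12 progenitor and myeloid, 3 of 4 megakaryocyte and 4 of 5 B cell. Endothelial windows gave 6 of 8, Kupffer cell 1 of 3 and stellate 4 of 7. In Con, in the same order, they were 4, 9, 3, 3, 5, 1 and 4, and none of these lists had a window called lower. The 4 hepatocyte promoters were lower at d21 in each. Of 9 hepatocyte windows, 7 were called lower at d21 in each maternal group, and 1 was called higher in Con. No promoter of these lists was called in AME against Con. The part of these cell types in the age differences of the 10 genes was not tested.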

How the data were processed

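RRBS libraries of 20 livers, 5 per group, were used. Tables deposited by the authors give, per library and CpG position of mm10, counts of reads called methylated and of reads called unmethylated, with percent methylation. FastQC, Bismark, BWA and Trim Galore stand in the processing notes of the submitters. Nothing on duplicate reads or on merging the strands of a CpG was given in the sources used here.

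The counts as deposited were summed over windows, promoters and bins with the gene models of GENCODE M21, and a region needed 3 kept CpGs unless it was a bin. The log2 ratio of methylated to unmethylated reads, with a pseudocount of 1 read on each side, was fitted by limma (version 3.58.1, under R 4.3.3) to the 10 libraries compared, and p-values were adjusted by Benjamini-Hochberg over all regions. The interaction used all 20 libraries. CpGs were tested with a quasi-binomial F test in Python 3.11.15 (numpy 2.4.6, scipy 1.17.1, pandas 2.3.3), and figures were drawn with matplotlib 3.10.9. All tests were two-sided. The limma step on bins and the quasi-binomial test were checked on reads simulated at the bin depths of AME-d21 and Con-d21. The other units and comparisons were not simulated. Sequences and starts are those of RefSeq on GRCm38. Reads are not separate molecules, so that depth gives counting error only.

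The 10 genes and the lists were chosen with earlier results of these data known. All 10 genes were named, with up to 8 called bins per direction and comparison by size of difference (the 3 largest where none was called), up to 5 called CpGs by p, and up to 3 called promoters per list. Bins next to these, or at a start, were named after their values were seen.

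Same-numbered libraries did not deviate together, with correlations over 189543 bins of -0.0333 to 0.0666, so numbers were not taken to pair samples. Alternatives were minimums of 5 and 20 reads, CpGs read in all 20 libraries, bins of 500 bp, promoters of 500 bp on either side, a pseudocount of 0.5, a replicate block, 1 fit of all libraries, other CpG tests and the absence of single libraries.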

Additional observations from a re-analysis of the deposited data

Results flagged for a closer look

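In 5 of 120 groups of 5 libraries examined, 1 library stood apart from the rest by Dixon's test, where chance gives about 6. The Dnmt3b window of AME-d21 replicate 3 was at 7.52%, with the nearest library at 10.6%, and 91.7% of its reads there came from bins below 10%. The Dnmt3b window of Con-d0 replicate 1 was at 13.4%, with the nearest at 10.4%, and that share was 81.0%. The Tet2 window of Con-d21 replicate 3 was at 15.2%, with the nearest at 24.4%, and the share was 71.1%. The Mbd1 window of AME-d21 replicate 4, the library that went against its label, was at 41.7%, with the nearest at 29.0%, and the share was 48.1%. The Tet2 bin from 133534001 was at 12.9% in AME-d21 replicate 3, with the nearest at 18.7%. The part of the read shares in these values was not tested.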

How the results depend on the processing

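Calls of single CpGs depended most on the test. In Con by age, 20 member CpGs became 75 with a logistic likelihood-ratio test, 31 with adjusted p-values, 45 with limma and 43 with limma and the replicate block. In AME by age, 20 became 78, 35, 58 and 55, and 7 without AME-d0 replicates 1 and 3. Of all 922846 CpGs, the likelihood-ratio test called 117565 in Con and 127229 in AME by age, and adjusted p-values 47836 and 47593. For limma per CpG no share over all CpGs is given here, so its counts describe the members only. In AME-d21 against Con-d21, 0 became 1 with the likelihood-ratio test, 2 with limma and 3 with the block, and in AME-d0 against Con-d0, 0 became 1 with limma. With 20 reads required, 23 bins were called in Con and 27 in AME, with 130214 bins tested. Windows called in AME were 5 in 1 fit of all libraries, and in Con 1 with a minimum of 5 reads. Promoters called in AME were 1 (Tet2) with a pseudocount of 0.5, and over every RefSeq start 1 in AME and 4 in Con. Without 1 library at a time, counts ranged from 12 to 17 CpGs, 36 to 46 bins and 2 to 4 windows in AME, and from 14 to 16 CpGs, 37 to 42 bins, always 2 windows and 0 to 1 promoters in Con. The replicate block left 41 bins in each by age and changed no other count of windows, promoters or bins, while the Tet3 window in AME (adjusted p = 0.080) and the Tet3 bin from 83451801 in Con (adjusted p = 0.11) were lost with it and the Dnmt3b window in AME was called (adjusted p = 0.049). No direction of a called value reversed. Among values of named regions under alternatives, 22 lost a call and 9 gained one. Values that were not called could change sign, as the Uhrf1 window in AME by age did, at -1.61 points without AME-d0 replicates 1 and 3. The causes were not tested. RRBS read 3.84% to 21.2% of the CpGs of each gene, and bins of 1 CpG rest on few reads.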
